A study of Mus musculus with 2 samples.

Results

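The Kruppel-like factors (Klf proteins) are transcription factors that share 3 zinc fingers at the C-terminus and bind GC boxes and CACCC motifs in promoters. They differ in their N-terminal parts, through which they recruit coactivators or corepressors. The 9 members described here, Klf2, Klf3, Klf4, Klf6, Klf7, Klf9, Klf10, Klf12 and Klf13, were chosen by gene symbol and are 9 of the 32285 genes counted. In macrophages and endothelial cells, Klf2 and Klf4 are known as brakes on inflammatory transcription and Klf6 as a promoter of it. Klf2, Klf4, Klf6 and Klf10 are also known as inducible genes, which respond to growth factors, shear stress or TGF-β, and these 4 were set against the other 5 members.

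The RNA came from microglia, the resident macrophages of the central nervous system, which were released from mouse spinal cord by collagenase IV, cleaned on Percoll and sorted as CD45 low, CD11b high and CX3CR1 high cells. Of the 2 libraries, 1 (labelled WT) stood for control mice, which a legend of the study gives as Eif4ebp1 fl/fl, and 1 library for 4E-BP1–cKO mice, Eif4ebp1 fl/fl:TMEM119CreERT2, in which 4-hydroxytamoxifen given from P4 to P9 activates Cre in cells that use the Tmem119 promoter. By this legend both genotypes carried the floxed allele, whereas the label WT does not name it. The mice were males of 8 to 10 weeks. The legend names no CreERT2 for these control mice, whereas controls of some other experiments of the study carried TMEM119CreERT2. Whether the control mice were given 4-hydroxytamoxifen and how many mice went into a library are not stated in what was read here. The comparison asks whether loss of 4E-BP1, a repressor of cap-dependent translation, changes the state of spinal microglia. RNA levels, not proteins or translation, are what these libraries measure.

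Of 1690 barcodes, 1592 passed the 2 filters used (over 300 genes detected, and mitochondrial UMIs under 5%): 1147 control cells with 4803562 UMIs and a median of 3053 per cell, and 445 4E-BP1–cKO cells with 1734332 UMIs and a median of 2776 per cell. A UMI (unique molecular identifier) stands for 1 captured RNA molecule. The libraries shared 0 barcodes. None of 9 microglial markers was at 0 in either library, and 96.3% of control and 93.5% of 4E-BP1–cKO cells held at least 3 of them. Markers of 12 other cell types reached that number in 15 control and 3 4E-BP1–cKO cells. Among these, the 8 endothelial markers held 457 UMIs (95.1 CPM, UMI counts scaled to the library total) in the control and 74 UMIs (42.7 CPM) in the 4E-BP1–cKO library, with Cldn5, Ly6c1 and Emcn at 0 in the latter. Endothelial cells express Klf2 and Klf4 strongly, and the 6 control cells with at least 3 endothelial markers held 0.633% of the control UMIs of Klf2 and 0.640% of those of Klf4. The targeted gene, Eif4ebp1, was read at 95 UMIs (19.8 CPM) in the control and 51 UMIs (29.4 CPM) in the 4E-BP1–cKO library. This 3′ count does not check the deletion, for which the genotyping of the study targets exon 2. Of the 9 microglial markers, Tmem119, whose promoter drives CreERT2, differed most between the libraries. It was read at 433 CPM in the control (59.4% of cells) and 142 CPM in the 4E-BP1–cKO library (33.9% of cells).

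With 1 library per genotype there is no replicate, and no test between genotypes is possible. Intervals given below are exact 95% intervals (Poisson for counts, Clopper-Pearson for shares, conditional Poisson for ratios). They reflect how many molecules or cells were counted, and mice, sorts and captures add a spread that they leave out. The Poisson and ratio intervals also leave out the spread between cells of 1 library. They are thus too narrow for members that cells held unevenly, and an interval that leaves out 1 is not a test.

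Klf2, Klf4 and Klf6 are compact genes of 2.59, 5.34 and 8.90 kb, at chr8:72319062-72321654 (plus strand), chr4:55527137-55532475 (minus strand) and chr13:5861489-5870393 (plus strand). All coordinates are those of RefSeq on GRCm38.p6, the assembly behind mm10. Klf10 has 9.25 kb (chr15:38291464-38300711), Klf9 26.9 kb (chr19:23141226-23168129) and Klf3 29.4 kb (chr5:64803521-64832901). The remaining 3 are longer, with 52.6 kb for Klf13 (chr7:63886351-63938915), 92.9 kb for Klf7 (chr1:64029448-64122345) and 420 kb for Klf12 (chr14:99866181-100285891).

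RefSeq promoters, from 250 bases before to 50 bases after a start site, were matched for 8 of the 9 members (not Klf10). Those of Klf2 (chr8:72318812-72319111, plus strand), Klf4 (chr4:55532426-55532725, minus strand) and Klf6 (chr13:5861239-5861538, plus strand) are shown because these 3 genes tracked the early-gene state of the cells. Capitals mark the GC box GGGCGG, the TATA motif TATAA, the motif CCAAT and the MEF2 box, each searched on both strands, so that an overlap of motifs appears as 1 run of capitals.
Klf2: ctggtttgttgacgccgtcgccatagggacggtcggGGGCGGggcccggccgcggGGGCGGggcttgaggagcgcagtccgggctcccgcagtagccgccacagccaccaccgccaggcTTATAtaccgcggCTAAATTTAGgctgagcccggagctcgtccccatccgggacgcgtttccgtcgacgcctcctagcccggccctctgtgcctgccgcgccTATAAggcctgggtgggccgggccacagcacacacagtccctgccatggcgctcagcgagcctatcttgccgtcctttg
Klf4: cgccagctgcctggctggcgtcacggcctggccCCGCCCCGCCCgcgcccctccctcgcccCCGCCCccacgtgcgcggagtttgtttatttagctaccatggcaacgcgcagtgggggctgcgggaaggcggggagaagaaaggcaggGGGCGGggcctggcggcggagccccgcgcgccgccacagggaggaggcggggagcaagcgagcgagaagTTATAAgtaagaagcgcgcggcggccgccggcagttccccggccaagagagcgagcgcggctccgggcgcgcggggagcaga
Klf6: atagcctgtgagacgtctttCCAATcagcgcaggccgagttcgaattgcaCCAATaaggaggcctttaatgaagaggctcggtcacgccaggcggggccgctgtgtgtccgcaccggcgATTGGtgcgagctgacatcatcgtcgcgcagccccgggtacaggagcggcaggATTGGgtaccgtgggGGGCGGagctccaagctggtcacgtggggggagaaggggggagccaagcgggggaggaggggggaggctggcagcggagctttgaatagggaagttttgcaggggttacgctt

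The Klf2 promoter held a MEF2 box, CTAAATTTAG, from -118 to -109 of the start site. MEF2 proteins bind this element, and the kinase ERK5 is known to switch on Klf2 and Klf4 through them. A MEF2 box was found in 1.86% of 32851 promoters of the same length, and among the 8 members it was found in Klf2. The Klf2 promoter also held TATAA from -29 to -25, the same motif on the other strand from -131 to -127, and 2 GC boxes. Klf4 held TATAA from -31 to -27 and 4 GC boxes, of which 2 overlap by 1 base. TATAA on either strand was present in 24.9% of all promoters and the GC box in 35.7%. Klf6 differed from both, with 4 CCAAT boxes (a motif in 37.4% of promoters), 1 GC box and no TATAA. The AP-1 motif TGAGTCA, the cAMP response element TGACGTCA and the CArG box, which serum response factor binds, had no match in the 8 windows and were found in 5.20%, 1.79% and 1.63% of all promoters. The windows of Klf3, Klf4 and Klf13 were the richest in G and C (76.7%, 74.3% and 72.0%), whereas that of Klf12 had 45.7% and held no GC box. The Klf12 and Klf7 windows lie inside their genes' outermost limits, at 1 of several possible starts. A match describes these letters and is not a measured binding site.

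The members were not of like abundance. Klf6 was read at 1381 CPM (1348 to 1415) in the control and 1454 CPM (1398 to 1512) in the 4E-BP1–cKO library, and Klf2 at 1151 CPM (1121 to 1182) and 1183 CPM (1133 to 1235). Klf4 followed with 846 CPM (820 to 873) and 710 CPM (671 to 751). Together, these 3 inducible members held 75.5% of the UMIs of the 9 members in the control and 75.9% in the 4E-BP1–cKO library.

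Klf12, a repressor that recruits CtBP, was the most abundant of the other 5 members, with 457 CPM (438 to 476) in the control and 390 CPM (361 to 420) in the 4E-BP1–cKO library. Klf7, known from neurons and adipocytes, was read at 239 CPM (226 to 253) and 230 CPM (208 to 254). Klf10, the TGF-β-inducible member, had 200 CPM (188 to 213) and 231 CPM (209 to 254). Klf7 and Klf10 thus stood apart by their intervals in the control but not in the 4E-BP1–cKO library. Klf3, another CtBP-dependent repressor, had 113 CPM (104 to 123) and 114 CPM (98.8 to 131). Klf13, which acts through Sin3a, had 84.5 CPM (76.5 to 93.2) and 88.2 CPM (74.8 to 103), again with an overlap of intervals with its neighbor Klf3 in the 4E-BP1–cKO library alone. Klf9, a glucocorticoid- and thyroid-hormone-responsive member, was the least abundant, at 22 UMIs (4.58 CPM, 2.87 to 6.93) and 14 UMIs (8.07 CPM, 4.41 to 13.5). Because 3′ UMIs count molecules rather than fragments, these levels were not divided by transcript length, but capture can differ between genes.

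Detection, the percent of cells in which a member had a UMI, followed the same order in the control. In the 4E-BP1–cKO library, Klf7 (40.4%, 35.9 to 45.2%) and Klf10 (39.6%, 35.0 to 44.3%) stood in the reverse order within overlapping intervals. Detection was 82.4% (80.1 to 84.6%) of control and 81.8% (77.9 to 85.3%) of 4E-BP1–cKO cells for Klf6, 77.2% (74.6 to 79.6%) and 74.4% (70.1 to 78.4%) for Klf2, and 64.0% (61.1 to 66.8%) and 62.0% (57.3 to 66.6%) for Klf4. For Klf13 it was 24.8% and 25.4%. The share for Klf9 was 1.57% and 2.02%. Among genes of other cell types, Mbp of myelin had UMIs in 10.2% and 14.8% of cells and Aqp4 of astrocytes in 1.83% and 1.57%. Cldn5 of endothelial cells had UMIs in 0.436% and 0%, and Snap25 of neurons in 0.349% and 0.225%. Klf9 lay within the range of these genes and could not be told from free RNA by its share. At an equal depth of 872 UMIs per cell, drawn at random, for which 89 cells of the control and 70 of the 4E-BP1–cKO library were too shallow, detection was 58.2% and 62.9% for Klf6, 51.5% and 52.5% for Klf2, and 38.4% and 34.4% for Klf4. Klf13 was then found in 6.24% (4.86 to 7.87%) of control and 10.4% (7.5 to 13.9%) of 4E-BP1–cKO cells. On all UMIs, a cell held a median of 4 members in both libraries, and 2.01% of control and 2.70% of 4E-BP1–cKO cells held none. At equal depth the median was 2 in both libraries, and 6.90% of control and 7.47% of 4E-BP1–cKO cells held none.

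The members also differed in how unevenly cells held them. In thinned cells the Fano factor (variance over mean, which is 1 for pure sampling and grows with the mean of an uneven gene) was 2.15 for Klf4, 2.11 for Klf2 and 1.68 for Klf6 in the control, and 1.72, 1.87 and 1.55 in the 4E-BP1–cKO library. It was 1.44 and 1.30 for Klf10 and 1.32 and 1.24 for Klf12, whereas in the control Klf3, Klf7 and Klf13 had 1.06, 1.10 and 1.08. In the 4E-BP1–cKO library these 3 had 1.09, 1.06 and 1.19, so that Klf13 was near Klf12 there. Divided by the mean, the part of the Fano factor above 1 gave another order, with 2.25 for Klf10, 1.58 for Klf4, 1.17 for Klf13, 1.10 for Klf2 and 0.591 for Klf6 in the control, and 1.24, 1.19, 1.62, 0.831 and 0.445 in the 4E-BP1–cKO library. Klf6 was thus abundant and among the more even members on that scale. No interval was computed for these values, and the place of Klf13 rests on 70 thinned UMIs in the control and 45 in the 4E-BP1–cKO library. Klf6 ranged from 0 UMIs in 17.6% of control cells to more than 10 UMIs in 17.2%, with a maximum of 65. The maxima of Klf2 and Klf4 were close in the control, at 63 each. In the 4E-BP1–cKO library the maximum was 48 for Klf2 and 45 for Klf6.

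**Figure D1:**
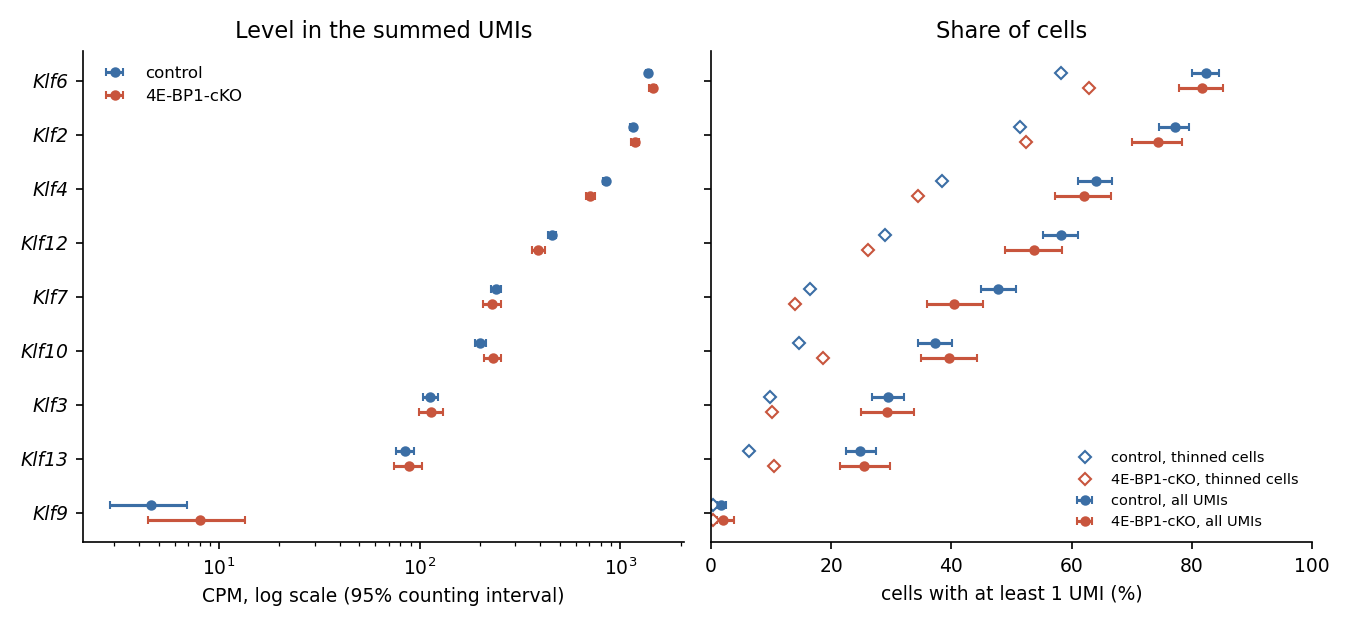
Left, CPM of each member in the summed UMIs of the control (blue) and 4E-BP1–cKO (red) library, on a log axis with exact 95% counting intervals. Right, percent of cells with at least 1 UMI on all UMIs (filled) and after thinning to 872 UMIs per cell (open). Klf6, Klf2 and Klf4 lead in both libraries, and Klf9 lies far below the rest.

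Between the libraries, most members were at like levels. The ratio of 4E-BP1–cKO to control CPM was 1.03 (0.976 to 1.08) for Klf2, 1.05 (1.01 to 1.10) for Klf6, 1.01 (0.852 to 1.19) for Klf3, 1.04 (0.861 to 1.26) for Klf13 and 0.962 (0.856 to 1.08) for Klf7. Klf4 was lower in the 4E-BP1–cKO library, at a ratio of 0.839 (0.787 to 0.895), and so was Klf12, at 0.854 (0.782 to 0.931). Klf10 was higher, at 1.15 (1.02 to 1.30). Of the 9 members, 1 was past 1.5-fold, Klf9 with a ratio of 1.76 on 36 UMIs in all, whose interval of 0.834 to 3.60 includes 1. At equal depth (1 draw) the member past 1.5-fold was another, Klf13, with 138 CPM on 45 UMIs in the 4E-BP1–cKO library and 75.9 CPM on 70 UMIs in the control, a ratio of 1.81 (1.22 to 2.68). Klf9 then had 1 and 3 UMIs. Over all 11784 genes with at least 20 UMIs, 18.8% were past 1.5-fold in either direction. Over the 4887 genes with at least 200 UMIs, to which the other 8 members belong, the share was 4.75%. The median log2 ratio was 0.04 over the members and -0.05 over all genes.

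The members were next compared along the early-gene state of the cells. The 17 early genes used here (among them Fos, Jun, Junb, Egr1, Atf3, Ier2 and Dusp1, with no Klf gene) are transcribed within minutes of many stimuli, the handling of tissue and cells included. Their share of a cell's UMIs had a median of 1.48% in the control and 1.96% in the 4E-BP1–cKO library, and 16 of the 17 genes had a higher CPM in the latter, with a median log2 ratio of 0.43. Cells were split at 1.18% and 2.08%, the tertiles over both libraries. This gave 422 early-low, 402 early-middle and 323 early-high control cells, and 109, 128 and 208 4E-BP1–cKO cells. The split cuts a continuous range, and 273 control and 91 4E-BP1–cKO cells lay within 10% of a limit. The early-high cells were also deeper (median of 4505 against 2722.5 UMIs in early-low control cells) and richer in ribosomal protein transcripts (5.09% against 1.56%).

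Klf2, Klf4 and Klf6 were higher in early-high than in early-low cells of both libraries. Klf2 was read at 598 CPM in early-low, 985 CPM in early-middle and 1802 CPM in early-high control cells, a ratio of high to low of 3.01 (2.80 to 3.25). In the 4E-BP1–cKO library it was read at 661, 1019 and 1418 CPM, a ratio of 2.15 (1.83 to 2.52). The 2 intervals of Klf2 did not overlap, and the difference between the libraries was not tested.

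Klf4 went from 496 CPM in early-low through 808 CPM in early-middle to 1191 CPM in early-high control cells, a ratio of 2.40 (2.20 to 2.62). In the 4E-BP1–cKO library the same steps were 437, 530 and 884 CPM, a ratio of 2.02 (1.67 to 2.48). Klf6 had nearly the same ratio in both libraries. Its levels were 842, 1271 and 1964 CPM in the control (ratio 2.33, 2.18 to 2.49) and 795, 1113 and 1822 CPM in the 4E-BP1–cKO library (2.29, 1.99 to 2.65). The share of thinned cells with a Klf2 UMI was 36.8% in early-low and 69.9% in early-high control cells, and 40.2% and 60.8% in the 4E-BP1–cKO library. For Klf6 the shares were 48.1% and 72.0% in the control and 48.3% and 73.5% in the 4E-BP1–cKO library, and for Klf4 30.1% and 45.0%, and 26.4% and 39.8%. With tertiles set on the thinned UMIs, the CPM ratios were 2.79 (2.38 to 3.29) and 2.48 (1.76 to 3.58) for Klf2 and 2.02 (1.75 to 2.34) and 2.01 (1.51 to 2.71) for Klf6. For Klf4 they were 2.35 (1.95 to 2.85) in the control and 1.48 (1.02 to 2.20) in the 4E-BP1–cKO library, the latter under 1.5-fold.

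Klf10, the remaining inducible member, had 174, 222 and 202 CPM in early-low, early-middle and early-high control cells and 198, 196 and 259 CPM in the 4E-BP1–cKO library. Its ratios of high to low, 1.16 (0.985 to 1.37) and 1.31 (0.968 to 1.79), both had intervals that include 1. Over all cells, the remaining members were not higher in early-high cells beyond their intervals. Klf3, Klf7 and Klf13 had ratios of 1.0, 1.05 and 1.03 in the control and 0.916, 0.859 and 0.866 in the 4E-BP1–cKO library, and all 6 intervals include 1. Klf12 went the other way, from 532 to 369 CPM in the control (0.694, 0.623 to 0.772) and from 496 to 334 CPM in the 4E-BP1–cKO library (0.673, 0.548 to 0.830). Klf9 had 9 UMIs in each of these groups of control cells, and 0 and 11 UMIs in the early-low and early-high 4E-BP1–cKO cells, where the lower bound of the ratio was 0.704. No difference was detectable at this depth.

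In each library, 3 of the 8 members with at least 20 UMIs in the cells compared (Klf2, Klf4 and Klf6) were past 1.5-fold higher in early-high cells. At equal depth the same 3 were in the control, but in the 4E-BP1–cKO library 2 of 8 (Klf2 and Klf6), with Klf13 past 1.5-fold lower (0.567, 0.255 to 1.30, on 17 and 12 UMIs). Over all genes other than the 17 early genes, 10.2% were in the control and 17.8% in the 4E-BP1–cKO library with a minimum of 20 UMIs. With a minimum of 200 UMIs the shares were 10.2% and 19.2%. In both libraries 3 of 8 was above the shares with a minimum of 20 UMIs, which were counted on all UMIs. The shares with a minimum of 200 UMIs do not cover all of these members. In the 4E-BP1–cKO library, Klf3 (111 UMIs in early-high and 34 in early-low cells) and Klf13 (71 and 23 UMIs) fell short of that minimum. At equal depth no share over all genes was counted, so 2 of 8 has no like share beside it. The members' median log2 ratio was 0.14 in the control and 0.13 in the 4E-BP1–cKO library, where all genes had -0.14 and -0.11. For the 4 inducible members it was 1.24 and 1.06.

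**Figure D2:**
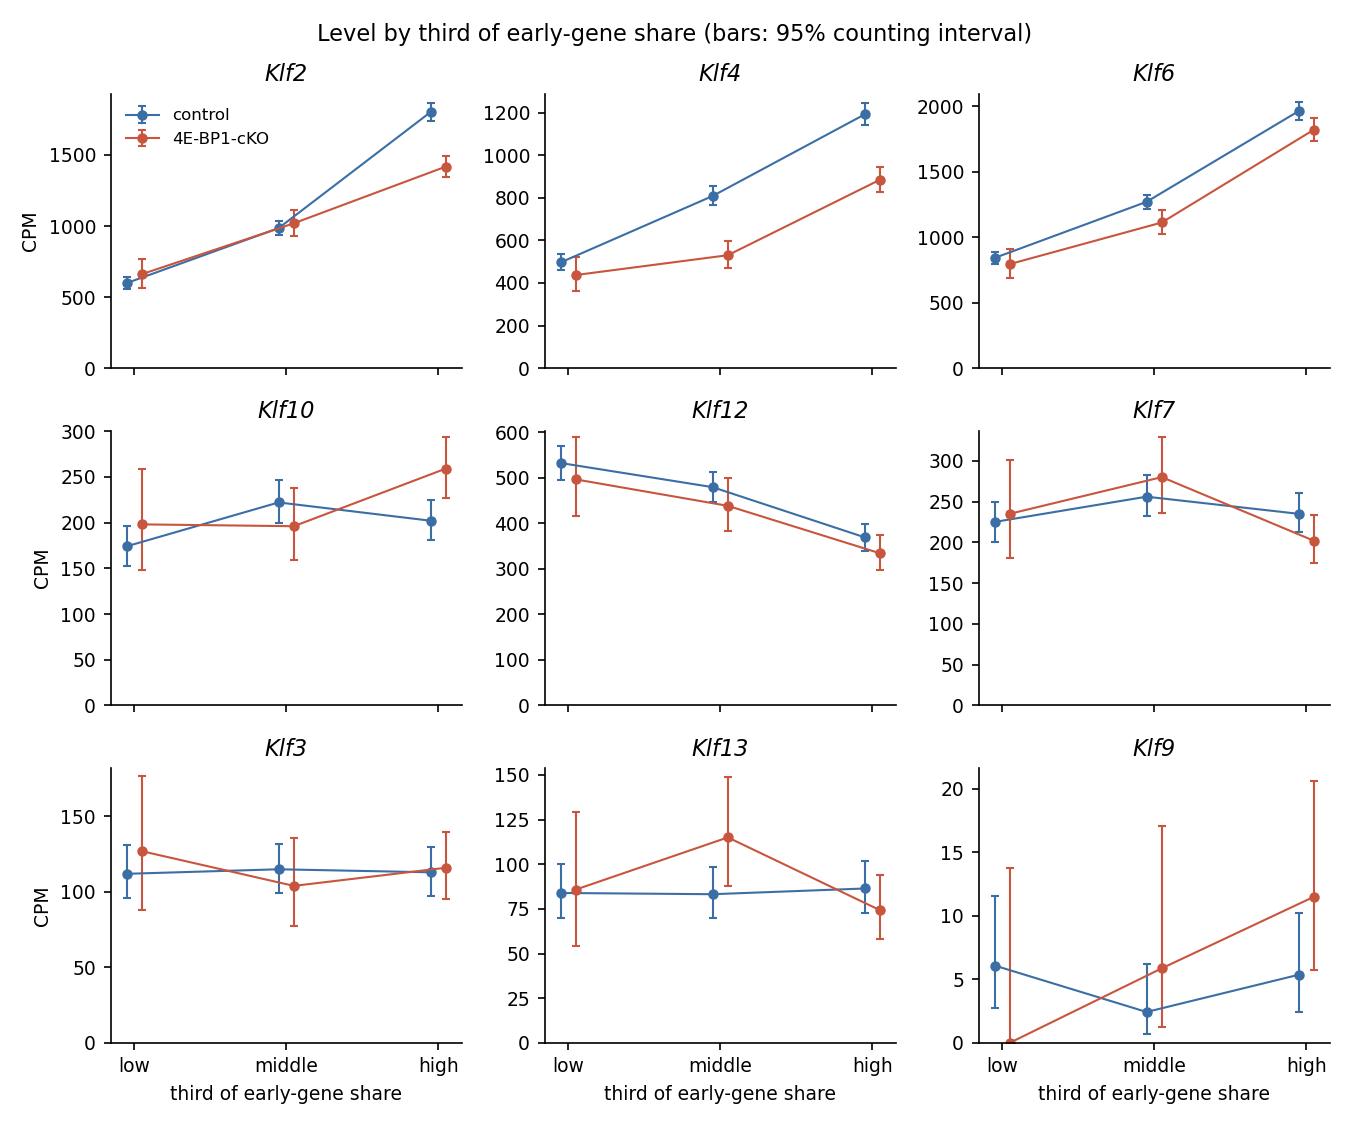
CPM of each member in the early-low, early-middle and early-high tertile of cells, with exact 95% counting intervals, in the control (blue) and 4E-BP1–cKO (red) library. Klf2, Klf4 and Klf6 climb in both libraries, Klf12 declines, and the other 5 members show no common direction.

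The libraries were also compared within each tertile of early-gene share, a comparison chosen after the data were seen. Cells of a tertile were not matched further. In early-high cells, the median early-gene share was 2.73% in the control and 3.08% in the 4E-BP1–cKO library, and the median depth 4505 and 3781 UMIs. In early-high cells, Klf2 was read at 1802 CPM in the control and 1418 CPM in the 4E-BP1–cKO library, a ratio of 0.787 (0.737 to 0.839), while in early-low and early-middle cells its ratios were 1.10 (0.935 to 1.30) and 1.03 (0.935 to 1.14). Klf4 was lower in the 4E-BP1–cKO library in early-middle (0.656, 0.573 to 0.748) and early-high cells (0.742, 0.684 to 0.804). Its ratio in early-low cells was 0.880 (0.717 to 1.07), with an interval that includes 1. At equal depth, early-low cells had 543 CPM of Klf4 on 36 UMIs in the 4E-BP1–cKO library and 508 CPM on 164 UMIs in the control. The mean log2 ratio over the 3 steps was -0.41 for Klf4, against -0.25 over all cells.

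Klf6 turned in direction, from a ratio of 1.05 over all cells to 0.944 (0.812 to 1.09), 0.876 (0.797 to 0.961) and 0.928 (0.875 to 0.983) at the 3 steps. More of the 4E-BP1–cKO cells (46.7%, against 28.2% of control cells) were early-high, where Klf6 stood highest. Klf10 differed in early-high cells on all UMIs, with 259 CPM in the 4E-BP1–cKO library and 202 CPM in the control (1.28, 1.08 to 1.51), but not by its intervals in early-low (1.14, 0.830 to 1.53) and early-middle cells (0.880, 0.698 to 1.10). At equal depth, early-high cells had 284 CPM of Klf10 on 47 UMIs in the 4E-BP1–cKO library and 236 CPM on 68 UMIs in the control. Early-low cells then had 332 CPM on 22 UMIs in the 4E-BP1–cKO library and 211 CPM on 68 UMIs in the control. No interval was computed for these differences at equal depth. Whether a difference in Klf10 was particular to early-high cells was not tested. Klf12 had ratios between 0.906 and 0.934, with all 3 intervals including 1. Each ratio compares 1 library with 1 library, and a difference between captures cannot be told apart from one between genotypes.

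**Figure D3:**
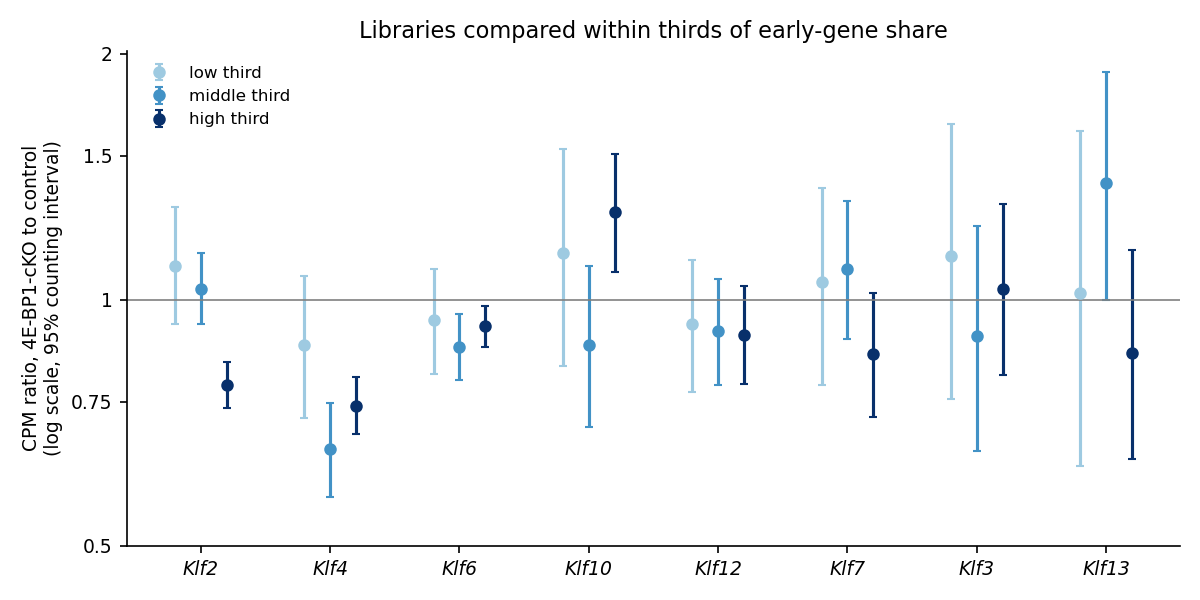
Ratio of 4E-BP1–cKO to control CPM within each tertile of early-gene share (light to dark, early-low to early-high), on a log axis with exact 95% counting intervals. Klf9 is left out for its low counts. Klf4 lies under 1 at each step, with an interval that includes 1 in early-low cells. In early-high cells Klf2 lies under 1 (0.787) and Klf10 above 1 (1.28), on all UMIs.

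The cells also differed in their ribosomal protein transcripts. Under 3% of UMIs fell on the 83 ribosomal protein genes in 659 control cells (57.5%) and 213 4E-BP1–cKO cells (47.9%), which are called ribosome-poor here, with 42 and 15 cells within 10% of this limit. The ribosome-poor cells were shallower (median of 2354 against 5512.5 UMIs in the control, and 1964 against 4735.5 in the 4E-BP1–cKO library). They were also richer in Malat1, a nuclear noncoding RNA, at 46639 against 27452 CPM in the control and 47020 against 31751 CPM in the 4E-BP1–cKO library.

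Klf12 had the highest ratio of ribosome-poor to other cells in both libraries. It was read at 613 CPM in them and 356 CPM in the other control cells (ratio 1.72, 1.58 to 1.87), and at 563 and 306 CPM in the 4E-BP1–cKO library (1.84, 1.58 to 2.15). Klf7 had 273 and 217 CPM in the control (1.26, 1.12 to 1.41) and 311 and 191 CPM in the 4E-BP1–cKO library (1.63, 1.33 to 1.99). Klf10 had 249 and 169 CPM in the control (1.47, 1.29 to 1.67) and 247 and 223 CPM in the 4E-BP1–cKO library, where the interval includes 1 (1.11, 0.898 to 1.37). At equal depth Klf12 remained higher in ribosome-poor cells of both libraries (1.90, 1.53 to 2.38, and 1.53, 1.05 to 2.22). Klf7 and Klf10 did so in the control (1.51, 1.11 to 2.09, and 1.46, 1.08 to 1.99). In the 4E-BP1–cKO library the ratio of Klf7 went down to 1.16 (0.666 to 2.0), on 29 UMIs in each class, and that of Klf10 was 1.44 (0.934 to 2.25).

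The 3 members that tracked the early genes were lower in ribosome-poor cells when all UMIs were summed. The ratios were 0.785 (0.742 to 0.830) and 0.836 (0.759 to 0.921) for Klf2, 0.794 (0.755 to 0.836) and 0.769 (0.703 to 0.840) for Klf6, and 0.895 (0.839 to 0.955) and 0.875 (0.772 to 0.990) for Klf4, in the control and 4E-BP1–cKO library. At equal depth they were 0.641 (0.568 to 0.724) for Klf2, 0.761 (0.679 to 0.853) for Klf6 and 0.866 (0.749 to 1.0) for Klf4 in the control. In the 4E-BP1–cKO library all 3 intervals then included 1, with 0.942 (0.768 to 1.15) for Klf2, 0.848 (0.702 to 1.02) for Klf6 and 1.03 (0.786 to 1.35) for Klf4, and a Klf2 UMI was found in 56.3% of ribosome-poor and 49.3% of other cells. With a ribosomal limit of 4%, the control log2 ratios were -0.03 for Klf6, -0.02 for Klf4 and -0.19 for Klf2. Klf3 was lower too in the control (0.745, 0.619 to 0.894), with 0.854 (0.618 to 1.17) in the 4E-BP1–cKO library. Klf13 stood at 1.01 (0.825 to 1.24) and 1.16 (0.816 to 1.63). Past 1.5-fold higher were 1 of 9 members in the control (Klf12) and 2 of 8 in the 4E-BP1–cKO library (Klf7 and Klf12). Over all genes but the ribosomal protein genes, 22.2% and 26.4% were with a minimum of 20 UMIs, and 21.2% and 34.3% with a minimum of 200 UMIs. The members' counts did not exceed these shares.

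Gene span moved with this contrast over all genes. Among genes with at least 200 UMIs, the median log2 ratio of ribosome-poor to other cells was -0.79 in the control and -0.89 in the 4E-BP1–cKO library for genes under 10 kb, 0.05 and 0.01 for genes of 10 to 50 kb, and 0.47 and 0.63 for genes of 50 kb and over. Klf12 (420 kb) and Klf7 (92.9 kb) belong to the last class, with log2 ratios of 0.78 and 0.88 for Klf12 and of 0.33 and 0.70 for Klf7. Klf13 (52.6 kb) belongs there too, and its log2 ratios of 0.02 and 0.21 lay under both medians. Klf2, Klf4, Klf6 and Klf10 are under 10 kb, and their log2 ratios, from -0.38 to 0.55 over both libraries, all lay above the medians of that class. The part of gene span, depth or Malat1 in the members' values was not tested.

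**Figure D4:**
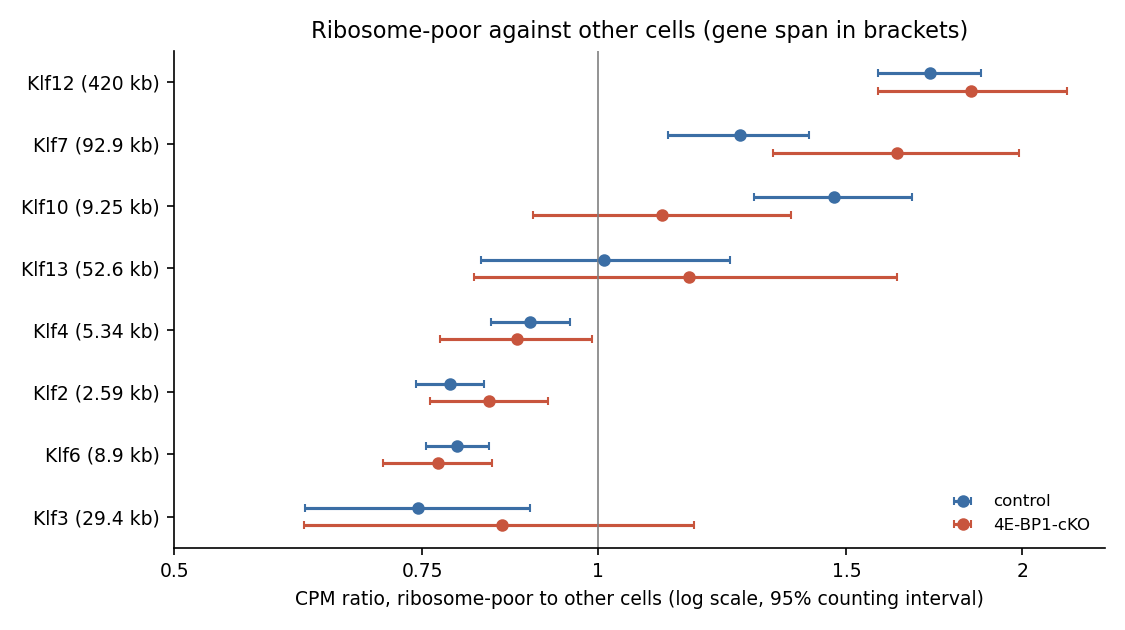
Ratio of CPM in ribosome-poor cells to that in other cells for 8 members (Klf9 left out for its low counts), on a log axis with exact 95% counting intervals, in the control (blue) and 4E-BP1–cKO (red) library, with the RefSeq span of each gene. Klf12 and Klf7 lie above 1 and Klf2, Klf4 and Klf6 under 1 in both libraries.

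Because early-high cells were seldom ribosome-poor (31.0% of them in the control, against 71.6% of early-low cells), the early-gene contrast was repeated within each class. Klf2, Klf4 and Klf6 remained higher in early-high cells of both classes. Klf2 had ratios of 2.23 (1.97 to 2.53) in ribosome-poor and 3.92 (3.48 to 4.44) in other control cells, and 1.91 (1.51 to 2.43) and 2.43 (1.90 to 3.15) in the 4E-BP1–cKO library. For Klf6 the control ratios were 1.52 (1.35 to 1.71) and 3.21 (2.89 to 3.57), and those of the 4E-BP1–cKO library 2.12 (1.71 to 2.65) and 2.39 (1.93 to 3.0). Within the classes, the Klf6 ratio of the control was the lower among ribosome-poor and the higher among other cells. The intervals of the libraries met at 1.71 in ribosome-poor cells and overlapped in other cells, and the difference was not tested. Klf4 had 2.93 (2.55 to 3.37) and 2.25 (2.0 to 2.55) in the control, and 1.74 (1.30 to 2.35) and 2.50 (1.83 to 3.52) in the 4E-BP1–cKO library.

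Klf10 followed the early genes in 1 class of cells. In cells with at least 3% ribosomal protein UMIs, it was read at 99.8 CPM in early-low and 199 CPM in early-high control cells (ratio 1.99, 1.52 to 2.66), and at 121 and 253 CPM in the 4E-BP1–cKO library (2.09, 1.22 to 3.90, on 14 UMIs in the early-low cells). In ribosome-poor cells it was at 231 and 216 CPM in the control (0.937, 0.692 to 1.25) and at 256 and 288 CPM in the 4E-BP1–cKO library (1.12, 0.712 to 1.78). Klf10 was thus at least as high in early-low ribosome-poor cells as in early-high cells of the other class. Its 2 intervals did not overlap in the control but did in the 4E-BP1–cKO library, and the difference between the classes was not tested. For Klf12, the decline with the early genes was smaller within the classes of the control, at 0.920 (0.768 to 1.10) in ribosome-poor and 0.796 (0.682 to 0.930) in other cells. In the 4E-BP1–cKO library it was 0.729 (0.534 to 0.989) in ribosome-poor cells and 1.25 (0.845 to 1.92) in the others. Klf7 was higher in early-high cells among the other control cells (1.43, 1.14 to 1.81), with 0.819 (0.542 to 1.28) in the 4E-BP1–cKO library. Klf13 was lower in early-high ribosome-poor control cells (0.530, 0.277 to 0.945, on 14 UMIs in the early-high cells), with 0.935 (0.374 to 2.31) in the 4E-BP1–cKO library.

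Clustering of the cells without the Klf genes gave 9 clusters, numbered by size and not named as cell types. Cluster 3, with Fos and Ccl3 among its leading genes and the highest median early-gene share (3.04%), held the highest Klf2 level of both libraries, 2112 CPM in the control and 1802 CPM in the 4E-BP1–cKO library. It also held the highest Klf6 level, 2086 and 2070 CPM. The lowest Klf2 levels were 650 CPM in cluster 2 of the control and 883 CPM in cluster 5 of the 4E-BP1–cKO library, so that Klf2 spanned 3.25-fold (2.89 to 3.66) and 2.04-fold (1.73 to 2.42). Klf4 was highest in cluster 3 of the control (1187 CPM), where cluster 7 was close (1175 CPM), and in cluster 4 of the 4E-BP1–cKO library (1122 CPM), with 1081 CPM in cluster 7 and 873 CPM in cluster 3. Points of at least 20 cells are compared, which leaves out the 17 4E-BP1–cKO cells of cluster 9.

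Klf10 was highest in another place, cluster 8, which Bag3, Hsph1 and Hspd1, genes of chaperones and a co-chaperone of the heat shock response, helped to define. It was read there at 450 CPM (351 to 568) on 70 UMIs in the control and 455 CPM (269 to 718) on 18 UMIs in the 4E-BP1–cKO library. These intervals overlapped those of cluster 2 of the control (374 CPM, 323 to 431) and cluster 3 of the 4E-BP1–cKO library (310 CPM, 258 to 369). The lowest Klf10 levels were 98.8 CPM in cluster 5 of the control and 109 CPM in cluster 7 of the 4E-BP1–cKO library, a span of 4.55-fold (3.26 to 6.35) and 4.17-fold (1.73 to 11.1). The median cell of cluster 8 was ribosome-poor (1.20%) with an early-gene share of 1.99%. Klf3 was highest in cluster 5 of both libraries (155 and 175 CPM), the cluster of the lowest mitochondrial share (0.400%), where Klf10 had 98.8 and 115 CPM. For Klf3, cluster 3 of the control (151 CPM) and cluster 7 of the 4E-BP1–cKO library (150 CPM on 11 UMIs) were close. Klf7 was highest in cluster 2 (334 and 410 CPM), with intervals that overlap those of cluster 8 (296 and 354 CPM). Klf12 stood between 575 and 686 CPM in clusters 1, 2, 4, 5, 7 and 8 of the control, and at 296, 229 and 88.9 CPM in clusters 3, 6 and 9. In cluster 4, whose cells are the shallowest (median of 760 UMIs), Klf12 was at 686 CPM in the control and 247 CPM in the 4E-BP1–cKO library. Among cells of cluster 9, marked by Apoe and a ribosomal share of 18.8%, the control cells had the lowest levels of Klf4 (219 CPM), Klf6 (568 CPM), Klf7 (82.1 CPM) and Klf12 of any cluster. These were 25 cells, with 12 UMIs of Klf7 and 13 UMIs of Klf12. The 17 4E-BP1–cKO cells of cluster 9 had 391 CPM of Klf4, 901 CPM of Klf6, 228 CPM of Klf7 and 271 CPM of Klf12.

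**Figure D5:**
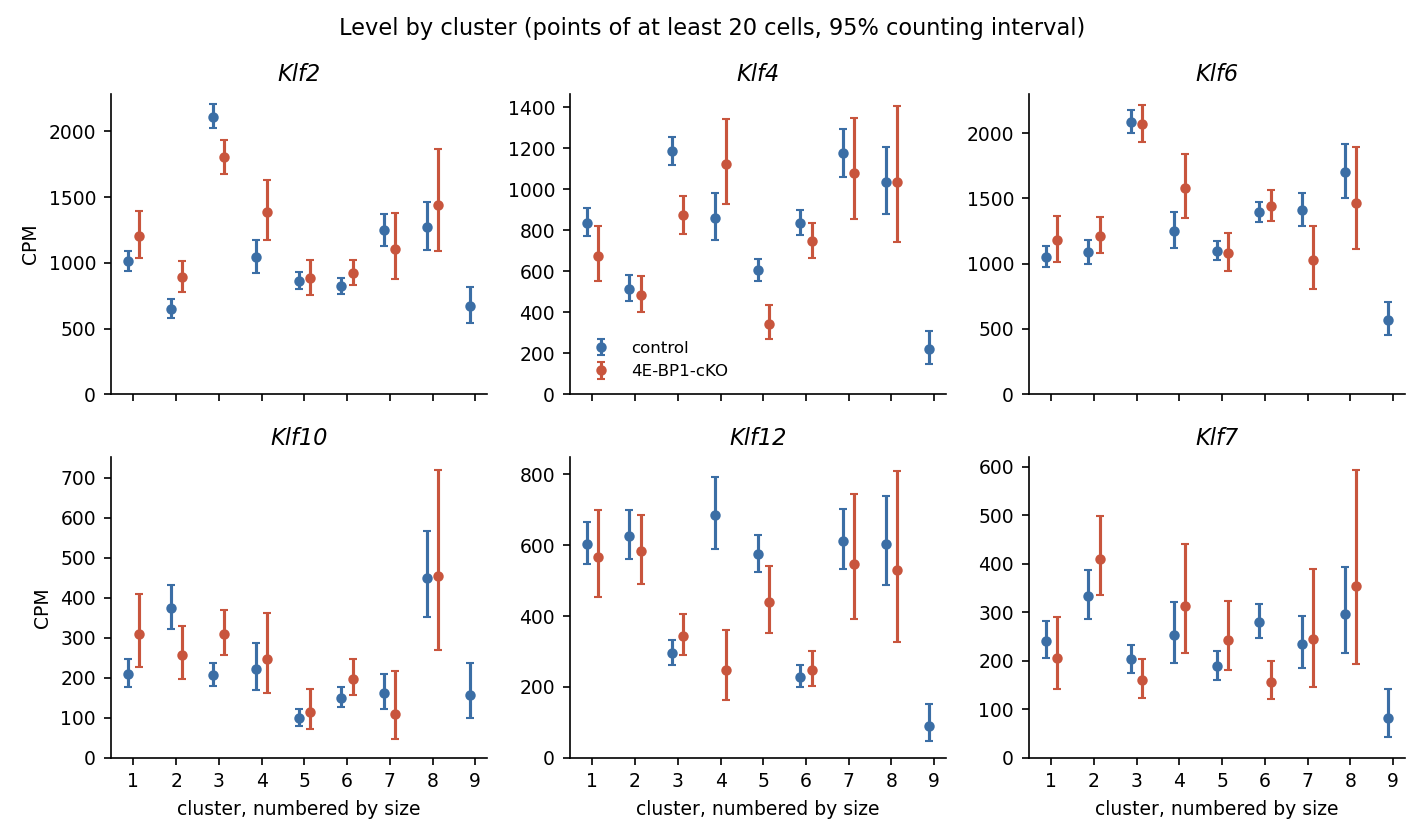
CPM of 6 members in each cluster with at least 20 cells of a library, with exact 95% counting intervals, in the control (blue) and 4E-BP1–cKO (red) library. Klf2 and Klf6 are highest in cluster 3 and Klf10 in cluster 8 of both libraries. The Klf10 intervals of cluster 8 overlap those of other clusters, as does the 4E-BP1–cKO interval of Klf2 in cluster 3.

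The genes most like each member were sought over 17 points (9 clusters of the control and 8 of the 4E-BP1–cKO library) among 4879 genes with at least 200 UMIs. The points share libraries, depth and cell state, and the correlations are descriptions. Klf2 was most like Jun (Pearson's r of log2 CPM 0.85), Zfp36l2 (0.81) and Ube2b (0.77). Klf4 was most like Fxr2 (0.86) and Fosb (0.85), and Klf6 like Hspb1 (0.83), Atf3 (0.82) and Jun (0.80). Early genes thus stood among the 3 nearest of Klf2, Klf4 and Klf6. For Klf10 they were Zfp622 (0.82), Mast2 (0.81) and Herpud1 (0.80), the last a gene of the response to unfolded proteins in the endoplasmic reticulum. Klf12 was most like Plcl1 (0.96), Dock4 (0.95) and Nfia (0.94), and Klf7 was like Zfand3 (0.91) and Disc1 (0.88). Klf3 went with Cd164 (0.86), F11r (0.86) and Cmtm6 (0.84), and Klf13 with Pla2g15 (0.81), Med21 (0.76) and Naalad2 (0.76). The values for Klf9 (Ykt6, 0.74, Taf1d, 0.73, and Wdfy1, 0.70) rest on 36 UMIs.

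Among the members themselves, r over these points was 0.79 for Klf2 with Klf6, 0.76 for Klf4 with Klf6, 0.72 for Klf2 with Klf4 and 0.66 for Klf7 with Klf12. Klf10 and Klf3 ran against each other (-0.66). Cell by cell, the association of the same pairs was weak or absent. In control cells thinned to 872 UMIs, 63.3% of cells with a Klf2 UMI and 52.8% of those without held a Klf6 UMI, and in the 4E-BP1–cKO library 64.5% and 61.2%. Both UMIs were held by 345 of 1058 and 127 of 375 thinned cells. Klf4 was found in 42.8% and 33.7% of these control cells. Spearman's rho of the 2 counts was 0.16 in the control and 0.07 in the 4E-BP1–cKO library for Klf2 with Klf6. It was 0.12 and 0.05 for Klf2 with Klf4, and 0.01 and 0.07 for Klf4 with Klf6. For Klf7 with Klf12 it was 0.00 and 0.03, and for Klf3 with Klf10 -0.03 and 0.09. At this depth the counts are sparse, and such weak differences are given as descriptions. Spearman's rho with the early-gene share of thinned cells was 0.31 in the control and 0.20 in the 4E-BP1–cKO library for Klf2, 0.24 and 0.29 for Klf6, 0.20 and 0.11 for Klf4, and 0.03 and 0.01 for Klf10.

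The rest of the Klf and Sp family was thinly read. Of 17 further genes, 6 had at least 20 UMIs over both libraries, namely Klf11, Klf16 and Sp1 to Sp4. Sp4 (93.1 CPM in the control and 77.8 CPM in the 4E-BP1–cKO library) and Sp3 (74.5 and 73.2 CPM), which bind the same GC boxes, were near Klf13. Klf11, a close relative of Klf10, had 33 and 13 UMIs. Klf1, Klf5 and Klf8 had 1 to 4 UMIs per library, Klf15, Sp6 and Sp9 0 to 2, and Klf14, Sp5, Sp7, Sp8 and Klf17 had 0, which by a limit of 3 counts per library allows a UMI in up to 0.262% of control and 0.674% of 4E-BP1–cKO cells. Between the libraries, 0 of the 6 were past 1.5-fold, where 18.8% of all genes were. In early-high cells of the control 0 of 6 were past 1.5-fold in either direction, and of the 4 with enough UMIs in the 4E-BP1–cKO library, Sp1 was higher (1.65, 0.808 to 3.81) and Sp3 lower (0.600, 0.380 to 0.967). Over all genes, 30.6% and 42.7% were past 1.5-fold in either direction. Sp2 was past 1.5-fold higher in ribosome-poor cells of both libraries, with log2 ratios of 1.09 and 1.23, as 1 of 6 and 1 of 4 family genes. Over all genes but the ribosomal protein genes, 22.2% and 26.4% were, so that the family counts did not exceed these shares.

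Of 18 genes that act with or upstream of Klf proteins, all had at least 20 UMIs. Between the libraries 0 of them were past 1.5-fold, where 18.8% of all genes were. Their log2 ratios ranged from -0.29 to 0.50, with a median of -0.04. The highest was that of Mapk7, the gene of ERK5, which was thinly read, at 30 UMIs in the control and 16 in the 4E-BP1–cKO library (ratio 1.48, 0.752 to 2.80). Of the 3 MEF2 factors listed, Mef2a at 2302 and 1992 CPM and Mef2c at 1625 and 1577 CPM stood above every member described here, whereas Mef2d at 112 and 109 CPM was near Klf3. Along the early-gene share Mef2a and Mef2c went against Klf2 and Klf4 over all cells. For the partners this contrast was not repeated within the ribosomal classes. Mef2a (1.57 in the control and 1.75 in the 4E-BP1–cKO library) and Mef2c (1.29 and 1.38) were higher in ribosome-poor cells. Such cells were more frequent among early-low than early-high cells, and their part in these values was not tested. Mef2c had a ratio of early-high to early-low cells of 0.667 (0.630 to 0.705) in the control and 0.637 (0.578 to 0.703) in the 4E-BP1–cKO library, and Mef2a of 0.768 (0.732 to 0.805) and 0.574 (0.526 to 0.627). For Mef2d both intervals include 1 (0.841, 0.677 to 1.04, and 0.982, 0.639 to 1.55). Map2k5, the kinase that activates ERK5, stood at 0.665 (0.509 to 0.867) and 0.442 (0.264 to 0.753). Wwp1, a ubiquitin ligase known to act on Klf2 and Klf5, stood at 0.518 (0.393 to 0.679) and 0.425 (0.268 to 0.681), and Smurf1 at 0.604 (0.453 to 0.802) and 0.561 (0.325 to 0.997). In the control, 4 of 17 partners were past 1.5-fold lower and 0 higher in early-high cells, and in the 4E-BP1–cKO library 7 of 16 were lower and 0 higher. Over all genes, 20.4% and 24.9% were past 1.5-fold lower. In ribosome-poor cells, 4 of 18 partners were past 1.5-fold higher in the control (Map2k5, Mef2a, Fbxw7 and Smurf1) and 7 of 16 in the 4E-BP1–cKO library, where over all genes 22.2% and 26.4% were. Past 1.5-fold lower were 2 of 18 in the control (Sin3b and Hdac2) and 0 of 16 in the 4E-BP1–cKO library. The shares of all genes were 20.6% and 24.0%.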

How the data were processed

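scRNA-Seq (10x Chromium 3′) was available for 1 control and 1 4E-BP1–cKO library. Unnormalized UMI counts were deposited for called cells. The authors had made these counts with Cell Ranger (8.0.1 per the file headers) on mm10. No source used here names the annotation release. Intronic reads and free RNA were not separated.

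The study's limits were applied (over 300 genes detected, mitochondrial UMIs under 5%), but doublets, which the study removed, were kept. Scrublet (scanpy 1.11.5) marked 3 control and 9 4E-BP1–cKO cells, which were left out in an alternative. The study used scDblFinder and kept fewer cells of each library than were kept here. The Scrublet alternative thus does not stand for its doublet removal. UMIs were summed over cells and given as CPM. Log2 ratios used a pseudocount of 1 CPM, and folds past 1.5 were counted for genes with at least 20 UMIs. The ratio between the libraries, its interval and the count past 1.5-fold were tested on simulated Poisson counts, which held no spread between cells. Clusters came from SCTransform (sctransform 0.4.2), RPCA, 20 principal components and a resolution of 1.4 in Seurat 5.3.0 (R 4.3.3), with Klf genes left out of the 2995 variable features. Thinning drew 872 UMIs per cell, the 10th percentile. Python 3.11.15, numpy 2.4.6, scipy 1.17.1, pandas 2.3.3 and matplotlib 3.10.9 were used for the rest, and TMM factors came from edgeR 4.0.16.

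The members, the early, family and partner lists and all settings were chosen with earlier results of these data known. The genes named are the 9 members, the 17 early genes, 17 family genes, 18 partners, and the 3 genes most like each member by Pearson correlation, of which 1 each for Klf4 and Klf7 is not reported here. Leading genes of clusters, Malat1, Mbp, the shares of cells with Aqp4, Cldn5 and Snap25, and the levels of Tmem119 were named after their values were seen. The minimum of 200 UMIs, the gene spans and the comparison of the libraries within tertiles of early-gene share were also added after the data were seen.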

Additional observations from a re-analysis of the deposited data

How the results depend on the processing

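Settings varied were the cell filters, doublets, cells with markers of another type, scaling, thinning, tertiles, the early-gene list, the ribosomal limit, the pseudocount and the cluster resolution. Of the log2 ratios of single members, 84 of 90 alternatives between the libraries, 139 of 162 along the early genes and 124 of 144 for ribosome-poor cells stayed within the interval of the value reported. Of all these alternatives, 5, 14 and 9 had the opposite sign. Where the interval of the value reported left out 1-fold, signs turned for Klf12 in the 4E-BP1–cKO library along the early genes among other than ribosome-poor cells (0.32), for Klf4 in ribosome-poor 4E-BP1–cKO cells after thinning (0.04) and for Klf6 between the libraries as a mean over the steps of early-gene share (-0.13, added after the data were seen). Signs within wider intervals turned for Klf10 along the early genes (4E-BP1–cKO, 0.38 to -0.23 after thinning, and control, 0.22 to -0.09 in ribosome-poor cells), for Klf13 in ribosome-poor 4E-BP1–cKO cells (0.21 to -0.37 after thinning) and between the libraries for Klf2 (0.04 to -0.05) and Klf9 (0.70 to -0.28) as that mean. In the control they also turned for Klf13 in ribosome-poor cells after thinning (0.02 to -0.35). Along the early genes among ribosome-poor control cells, they turned for Klf13 (0.04 to -0.90) and Klf9 (-0.16 to 3.07). Further turns are not listed. The cause was not tested. The 1 member past 1.5-fold between the libraries became 0 with a pseudocount of 10 CPM, which by construction shrinks low counts, and after thinning was Klf13 (log2 ratio 0.85) in place of Klf9 (-0.07). Of members past 1.5-fold in ribosome-poor cells, in either direction, there were 4 in the control (1 as reported) and 1 in the 4E-BP1–cKO library (2 as reported) both after thinning (Klf2, Klf3, Klf7 and Klf12 in the control, Klf12 in the 4E-BP1–cKO library) and with a limit of 2% (Klf3, Klf9, Klf10 and Klf12, and Klf12). The count of 3 along the early genes, in either direction, was 3 or 4 under every alternative and held Klf2, Klf4 and Klf6, except in thinned 4E-BP1–cKO cells, where Klf4 (log2 ratio 0.56) fell under 1.5-fold and Klf13 (-0.81) was past it. With 1 library per genotype, no library could be left out. No paired analysis was possible because each genotype has 1 library and no test was run. Levels per cluster (highest to lowest) stayed within their interval in 10 of 16 cases at a resolution of 0.8. The other 6 were spans of the control, all under their interval. Klf2 went from 3.25-fold to 2.58-fold, Klf4 from 5.42 to 1.96 and Klf6 from 3.67 to 2.01. Klf7 went from 4.07 to 1.59, Klf10 from 4.55 to 3.08 and Klf12 from 7.72 to 3.01. The highest and lowest clusters were picked by their values, which the intervals of these spans do not allow for. Depth limits Klf9 (36 UMIs) most.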
